A study of Mus musculus with 3 samples.

Results

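The nuclear-encoded respiratory chain genes were read in single stromal cells of mouse inguinal fat. They are the 83 genes, of 32285 in the count tables, whose symbols begin with the stems of the subunit families Nduf, Sdh, Uqcr, Cox and Atp5. By symbol, 38 belonged to complex I, 4 to complex II, 8 to complex III, 16 to complex IV and 17 to complex V. The rule used names only, so no measured value chose a gene. The samples were 3 wild-type male C57BL/6J mice aged 8 weeks, untreated and all of 1 condition. Their subcutaneous inguinal depots were digested with collagenase, the floating adipocytes were discarded, and CD31- CD45- cells were sorted, a gate meant to remove endothelial cells and leukocytes. Each mouse gave 1 droplet library, and each messenger RNA molecule was counted once by its unique molecular identifier (UMI).

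The respiratory chain is the set of protein complexes in the inner mitochondrial membrane that passes electrons from nutrients to oxygen and uses the energy released to make ATP. Complex I (NADH dehydrogenase) and complex II (succinate dehydrogenase) take up electrons, complex III hands them to cytochrome c, complex IV (cytochrome c oxidase) reduces oxygen, and complex V is the ATP synthase. Most subunits are encoded in the nucleus, while a few core subunits of complexes I, III, IV and V come from mitochondrial DNA. Several subunits have paralogs whose use differs between tissues. Cox8b, Cox7a1 and Cox6a2 are isoforms known from heart, muscle or brown fat, and Ndufa4l2 is known as a hypoxia-induced relative of Ndufa4 that is also abundant in pericytes.

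Cells were placed in groups by raw UMIs of a few genes. The progenitor gate took cells with at least 3 UMIs of Dpp4 and Pi16 together and at most 1 of Icam1 and Fabp4, and stands for the Dpp4+ adipocyte stem cells (ASCs). The preadipocyte gate took cells with at least 4 UMIs of Icam1 and Fabp4 and at most 1 of Dpp4, and stands for the Icam1+ preadipocytes (PreAs). The regulatory gate took cells with at least 1 UMI each of Clec11a and Fmo2 and at most 1 each of Fabp4 and Dpp4, and stands for the adipocyte regulatory cells (Aregs). In mice 1, 2 and 3 these gates held 7399, 3169 and 9273 progenitor cells, 2278, 1394 and 1889 preadipocytes, and 270, 384 and 404 regulatory cells. Of the preadipocytes, 574, 256 and 274 had no Icam1 UMI and entered through Fabp4 alone. The 49, 119 and 96 cells that met 2 gates were left out. Genes that were not used for gating followed the names. All 8 other progenitor genes (such as Cd55 and Sema3c) were lower in both other gates, 7 of 8 preadipocyte genes (such as Pparg and Lpl) were higher in preadipocytes than in progenitor cells, and all 8 regulatory genes (such as F3 and Gdf10) were higher in regulatory cells than in either other gate.

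After filtering, 12984, 6414 and 15179 cells with 94816520, 78108414 and 99328725 UMIs were left. Mouse 2 was sequenced deepest per cell, with a median of 12192 UMIs against 7393 and 6667. Regulatory cells were shallower than the others, with medians of 4945, 10104 and 4575 UMIs against 7329, 12052 and 6690 in progenitor cells. Any pair of libraries shared 52 to 81 barcodes. Summed markers of mature adipocytes reached at most 2.57 UMIs per 1000000 (CPM) in any gate, and Lep was at 0. The 5 endothelial genes of the list summed to 8.03, 2.29 and 2.64 CPM in progenitor cells, 17, 30.6 and 1.84 in preadipocytes and 4.21, 3.79 and 5.68 in regulatory cells, and 3 of the 4 tested were higher in preadipocytes than in progenitor cells. Cells at or above set UMI counts of markers of other cell types were left out as an alternative. The median log2 fold change of preadipocytes over progenitor cells was then 0.058 for the chain genes and 0.003 for all genes tested. With these cells kept, the medians were 0.057 and 0.004. The genes of the response to tissue dissociation (Fos, Jun, Egr1 and 7 others) summed to between 11663 and 15178 CPM in progenitor cells, 18461 and 23369 in preadipocytes and 18445 and 21034 in regulatory cells. Their part in the differences between gates was not tested, but each count of genes was repeated in cells low in these genes.

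The promoters of the chain genes carried letters known to bind regulators of respiratory genes. Of the 83 genes, 69 were matched to a RefSeq promoter of GRCm38.p6, from 250 bases before to 50 after the start. The letters of nuclear respiratory factor 1 (GCGCATGCG) stood in 8 of these, or 11.6%, against 1.81% of all 27025 promoters, read on both strands. The letters of GABPA (CCGGAAG), the DNA-binding part of nuclear respiratory factor 2, stood in 16, or 23.2%, against 9.12% of all promoters. The YY1 letters AAGATGGCG stood in 6 (8.7% against 1.49%) and the letters of the estrogen-related receptors (AAGGTCA) in 8 (11.6% against 4.66%). The core of the hypoxia response element (ACGTG) stood in 18 (26.1% against 19.7%) and TATAAA in 8 (11.6% against 14.2%). None of these motifs is contained in another, and a match does not show that a factor was bound. The 120 bases before the start are shown for Cox8b, because its level differed most between gates, and for Atp5g2, Ndufa11 and Sdhd, because they show the respective letters. Capitals mark a match.
Cox8b, chr7:140900447-140900566, minus strand: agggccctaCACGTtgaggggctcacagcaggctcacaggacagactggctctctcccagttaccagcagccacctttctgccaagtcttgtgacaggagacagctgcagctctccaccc
Atp5g2, chr15:102671048-102671167, minus strand: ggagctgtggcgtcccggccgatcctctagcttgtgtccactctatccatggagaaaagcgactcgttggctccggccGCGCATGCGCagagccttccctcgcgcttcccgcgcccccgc
Ndufa11, chr17:56717642-56717761, plus strand: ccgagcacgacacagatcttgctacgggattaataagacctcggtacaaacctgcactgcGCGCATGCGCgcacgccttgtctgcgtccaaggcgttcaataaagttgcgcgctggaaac
Sdhd, chr9:50603850-50603969, minus strand: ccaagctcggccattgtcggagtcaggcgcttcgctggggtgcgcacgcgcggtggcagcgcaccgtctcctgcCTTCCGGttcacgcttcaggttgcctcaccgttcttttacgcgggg
The hypoxia letters of Cox8b begin 111 bases before the start and read on the opposite strand, as do the GABPA letters of Sdhd, 46 bases before it. The letters of nuclear respiratory factor 1 begin 42 bases before the start of Atp5g2 and 60 before that of Ndufa11, in both cases with the reverse match 1 base further on, so that 10 capitals mark both.

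Summed over all 83 genes, the chain took close to the same share of the transcriptome in each gate. It made up 1.1%, 1.37% and 1% of all UMIs in the progenitor cells of mice 1, 2 and 3, 1.24%, 1.42% and 1.06% in preadipocytes and 1.21%, 1.38% and 1.11% in regulatory cells. Mouse 2 was highest and mouse 3 lowest in every gate, and the mice spread further apart than the gates. Within mice, preadipocytes lay above progenitor cells by 0.104 ± 0.07 on the log2 scale (SD, n = 3 mice), a mean of 1.07-fold, in all 3 mice. That difference was 0.0489 ± 0.0625 with library sizes scaled by TMM (trimmed mean of M-values) and 0.0459 ± 0.0762 when mitochondrial and ribosomal protein UMIs were left out of the total. Regulatory cells lay above progenitor cells by 0.1 ± 0.0811, of which mouse 2 showed only 0.0072. In cells of 5000 to 15000 UMIs that difference was 0.00734 ± 0.0302. Preadipocytes and regulatory cells differed by 0.00306 ± 0.067. A score over chosen genes was not tested, and an exact sign-flip test over 3 mice cannot give a p below 0.25.

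The complexes, assigned by symbol, did not all follow the sum. Complex I by this rule holds Ndufa4, known as a subunit of complex IV, and its relative Ndufa4l2. From progenitor to regulatory cells their mean levels went from 274 to 356 CPM and from 1.57 to 43.25 CPM. The sums were not repeated with these genes moved to complex IV. Regulatory cells exceeded progenitor cells by 0.158 ± 0.102 (log2, SD, n = 3) for complex I and 0.18 ± 0.0736 for complex III, in 3 of 3 mice each. Complex II was lower by contrast, at -0.0951 ± 0.0576 with no mouse higher, and complex IV stood at -0.0126 ± 0.0795. Most of the fall of complex II lay in Sdha, whose mean level went from 81.1 CPM in progenitor cells to 61.95 in regulatory cells. Sdhd went from 51 to 47.6, while Sdhb went from 62.1 to 67.7 and Sdhc from 49 to 50.2. In cells low in dissociation genes, complex II was at -0.102 ± 0.178, with 1 mouse higher. In cells of 5000 to 15000 UMIs, which bring the gates closer in depth, complex I was at 0.047 ± 0.041, complex III at 0.0937 ± 0.0223, complex II at -0.168 ± 0.113 and complex IV at -0.0916 ± 0.0425, with complexes I and III higher in 3 of 3 mice and II and IV in none. In preadipocytes against progenitor cells, complexes I, III, IV and V lay between 0.0978 and 0.142, while complex II was at 0.0328 ± 0.0444.

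**Figure D1:**
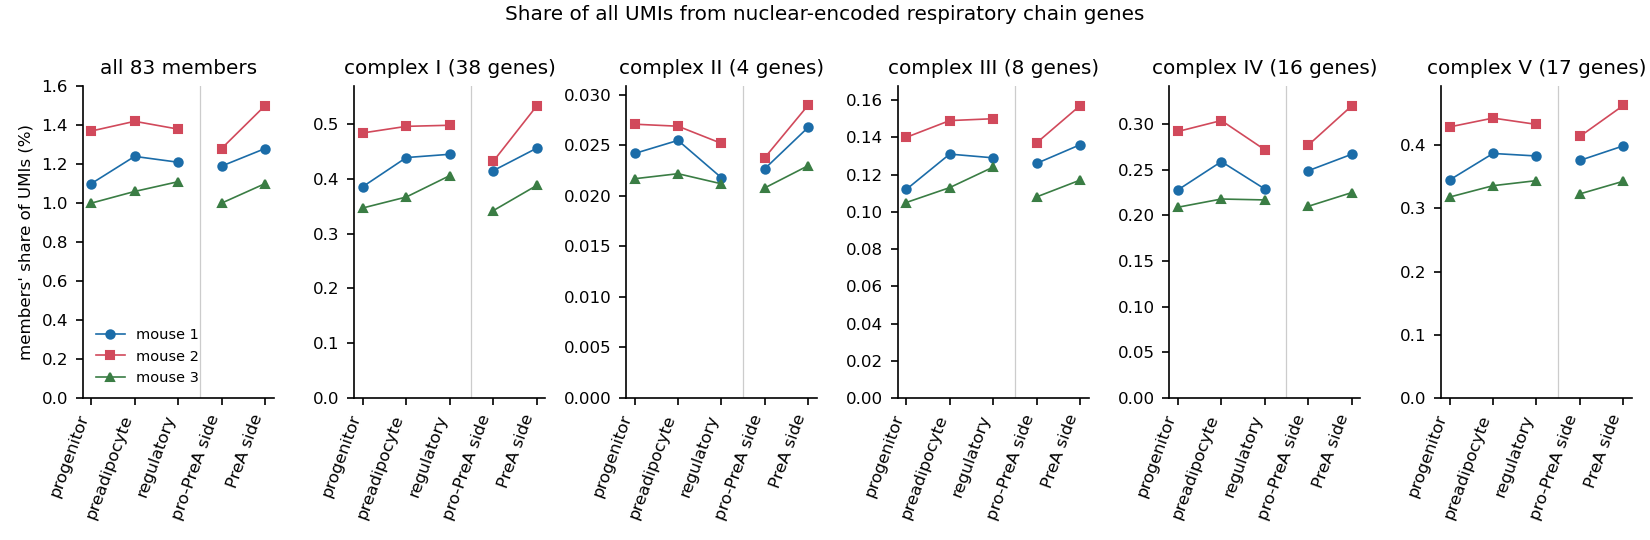
Share of all UMIs (%, linear axes from 0) taken by the nuclear-encoded chain genes in each gate, for all 83 genes and by complex, with 1 point per mouse and lines joining the gates of a mouse. For all genes, the lines of the mice lie further apart than the gates, and complex II lies lower in regulatory than in progenitor cells where complexes I and III lie higher.

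Single genes were tested to ask which subunits differ between preadipocytes and progenitor cells. Of the 80 genes with enough counts, 22 were higher and 7 lower in preadipocytes (edgeR quasi-likelihood test with mouse as a block, Benjamini-Hochberg adjusted p under 0.05 over all genes). These 29 are 36.25% of the chain genes, whereas 56.4% of all 13258 genes tested were called, 27.2% as higher and 29.2% as lower. The changes were also small. The median absolute log2 fold change was 0.117 against 0.354 over all genes, 74 of 80 genes lay within 0.5 of zero, and 3.75% exceeded 1 against 20.2% of all genes. The median SE was 0.0633 for the chain genes and 0.109 for all genes, which were not matched to the chain by level. The median log2 fold change was 0.057 against 0.004 for all genes. By complex, 11 genes rose and 3 fell in complex I, 1 and 1 in complex II and 5 and 3 in complex IV, while the 3 genes called in complex III and the 2 in complex V all rose. Without the mouse as a block, 5 genes were called, where 30.1% of all genes were.

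The largest difference in the chain was that of Cox8b (chromosome 7, 140898945 to 140900446, minus strand, GRCm38), an isoform of the smallest class of complex IV subunits. Its level was 0.651, 0.235 and 0.178 CPM in the progenitor cells of mice 1, 2 and 3, 25.1, 56 and 29.1 in preadipocytes, and 0.702, 0.271 and 0.517 in regulatory cells. Every preadipocyte value lay above every value of the other gates. Against progenitor cells, Cox8b rose by 6.50 ± 0.306 (log2, SE; edgeR adjusted p = 3.47e-09). In regulatory cells it rested on 1 UMI per mouse, so the ratios of preadipocytes to regulatory cells, 35.8, 207 and 56.3, had counting intervals (95%, exact) of 6.39 to 1420, 37 to 8180 and 10.1 to 2230.

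A UMI of Cox8b was seen in 13.9%, 27.8% and 13.3% of preadipocyte-gated cells, against 0.419%, 0.284% and 0.119% of progenitor cells and 1 regulatory cell per mouse. The median depths of the preadipocytes were 8083, 12977 and 7296 UMIs. At an equal depth of 3000 UMIs per cell the shares were 6.49%, 12.8% and 7.03% in preadipocytes and at most 0.22% in progenitor cells. Cox8a, the ubiquitous isoform, also rose, from 376, 458 and 327 CPM in progenitor cells to 519, 594 and 415 in preadipocytes (0.34 ± 0.067, adjusted p = 0.0009). Cox8b supplied 4.61%, 8.61% and 6.55% of the UMIs of the pair in preadipocytes and at most 0.179% in the other gates. Of the 1023 Cox8b UMIs in the preadipocytes of mouse 2, 42 came from 2 cells with skeletal muscle genes, and mice 1 and 3 had no such cell in that gate.

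Within the preadipocyte gate, Cox8b differed with the gate gene that admitted the cell. Cells with at most 1 Fabp4 UMI, which entered through Icam1, had 4.92, 6.33 and 8.88 CPM of Cox8b. Cells without Icam1, which entered through Fabp4, had 31.5, 92.7 and 44.1 CPM. Fabp4 is a fatty acid carrier of maturing fat cells and part of the gate, so these values are a description. Ndufa4l2 ran the same way, at 25.5, 35.1 and 19.5 CPM against 37.4, 86.1 and 41.9. So did the sum of all 83 genes, at 11150, 12830 and 9826 CPM in the cells that entered through Icam1 and 13370, 15720 and 11810 in those that entered through Fabp4. Against the shares of progenitor cells given above, the cells that entered through Icam1 were higher in mouse 1 and lower in mice 2 and 3, and those that entered through Fabp4 were higher in all 3.

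Ndufa4l2 (chromosome 10, 127514967 to 127517154, plus strand) was the other large difference, and it was raised in both other gates. Progenitor cells had 1.71, 1.43 and 1.57 CPM, preadipocytes 34.2, 56.5 and 36, and regulatory cells 46.3, 39.5 and 43.9. The progenitor cells did not overlap with the others, while preadipocytes and regulatory cells did. The rise over progenitor cells was 4.64 ± 0.172 in preadipocytes (edgeR adjusted p = 4.68e-10) and 4.67 ± 0.235 in regulatory cells (1.7e-08). Both comparisons use the same progenitor sums. At 3000 UMIs per cell, 8.79%, 14.6% and 8.84% of preadipocytes and 10.5%, 10.8% and 9.15% of regulatory cells had a UMI of it, against at most 0.571% of progenitor cells. Its partner Ndufa4, named for complex I but known as a subunit of complex IV, did not pass the test in preadipocytes (0.00 ± 0.0713, adjusted p = 0.972). Ndufa4l2 made up 10.1%, 15.1% and 13.5% of the pair in preadipocytes, 11.2%, 9.09% and 12.5% in regulatory cells and at most 0.692% in progenitor cells.

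Markers of mural cells, which are known to express Ndufa4l2, were also counted. The 6 genes of the list summed to between 76 and 85.3 CPM in progenitor cells, 172 and 212 in preadipocytes and 76.5 and 105 in regulatory cells. In preadipocytes 4 of 6 rose and 2 fell. Most of the sums came from Pdgfrb, at 136, 180 and 153 CPM in preadipocytes and 65.9, 62.7 and 69.9 in progenitor cells. The study counts Pdgfrb in its adipogenic gene set. Kcnj8 was lower in preadipocytes, at 2.28, 2.02 and 1.99 CPM against 3.22, 5.4 and 6.06 in progenitor cells. Des was lower too, at 2.99, 5.36 and 4.64 against 7.68, 6.8 and 7.31. Notch3 was higher in preadipocytes, at 10.9, 15.2 and 11.3 CPM against 0.725, 0.73 and 0.616 in progenitor cells. Myh11 was also higher, at 9.62, 1.86 and 10.9 against 1.13, 0.182 and 0.842. The defining pericyte gene Rgs5 stood at 10.5, 7.88 and 2.58 CPM in preadipocytes and 0.702, 0.541 and 1.55 in regulatory cells. Its level in progenitor cells was 0.539, 0.13 and 0.518 CPM. Cells at or above set UMI counts of Rgs5 and Myh11 together, or of markers of other cell types, were then left out. Cells with fewer such UMIs stayed in, and 2236, 1353 and 1870 preadipocytes and 268, 383 and 400 regulatory cells remained. In these, the rise of Ndufa4l2 was 4.60 in preadipocytes and 4.70 in regulatory cells. Its exons overlap those of Shmt2 on the other strand, and the sources used here do not say whether counting used the strand.

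**Figure D2:**
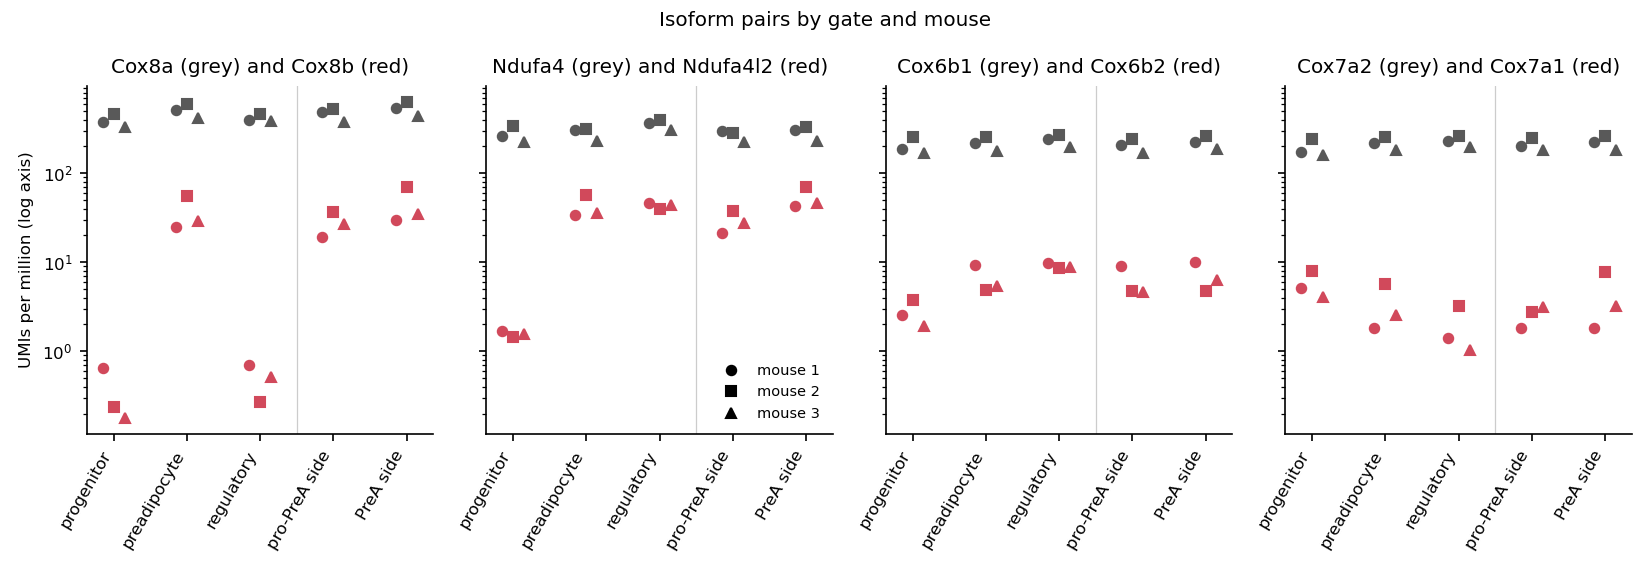
Levels (CPM, log axis) of 4 pairs of isoforms in each gate, with 1 point per mouse, the common isoform in grey and the restricted one in red. Cox8b is above 10 CPM in preadipocytes and their 2 sides and below 1 CPM elsewhere, Ndufa4l2 is above 10 CPM in regulatory cells too, and the common isoforms stay within a narrow band.

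The remaining isoforms of complex IV were rarer or moved less. Cox6b2, an isoform best known from testis, rose from 2.55, 3.73 and 1.94 CPM in progenitor cells to 9.4, 4.87 and 5.45 in preadipocytes (1.22 ± 0.228, adjusted p = 0.000632) and 9.83, 8.65 and 8.78 in regulatory cells (1.73 ± 0.342, adjusted p = 0.00144). Cox7a1, the muscle isoform, ran the other way, from 5.17, 8.03 and 4.05 CPM to 1.85, 5.74 and 2.58 in preadipocytes (-0.88 ± 0.18, adjusted p = 0.00123). In regulatory cells it rested on 2, 12 and 2 UMIs, and progenitor cells exceeded them 3.68-fold (1.01 to 30.6), 2.47-fold (1.4 to 4.84) and 3.92-fold (1.07 to 32.5, 95% exact intervals). In cells low in dissociation genes, the rise of Cox6b2 in regulatory cells (1.32, adjusted p = 0.148) and the fall of Cox7a1 in preadipocytes (-0.65, 0.0639) were not called. Cox6a2, the other muscle isoform, was not tested. Cells with muscle genes, 5, 17 and 2 in number, held 11 of its 11 UMIs in mouse 1, 178 of 187 in mouse 2 and 96 of 97 in mouse 3. Cox7b2 and Cox8c also had too few counts to test.

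Among abundant subunits, Cox7a2l fell most. This protein, also called Scaf1, is known for joining complexes III and IV into supercomplexes. Its level was 286, 322 and 297 CPM in progenitor cells, 211, 228 and 196 in preadipocytes and 171, 214 and 210 in regulatory cells, and no value of the progenitor cells overlapped with the others. The fall was -0.57 ± 0.0675 (adjusted p = 1.58e-05) in preadipocytes and -0.60 ± 0.0741 (3.57e-05) in regulatory cells. Ndufs8, an iron-sulfur subunit of complex I, rose from 28.5, 35 and 23.2 CPM to 50.3, 52.1 and 39 in preadipocytes (0.66 ± 0.0867, adjusted p = 3.61e-05) and to 42.1, 44.1 and 47.5 in regulatory cells (0.61 ± 0.123, adjusted p = 0.0017), the latter not called in cells low in dissociation genes (0.42, adjusted p = 0.132). Atp5g1, 1 of 3 genes for the same ring subunit of ATP synthase, rose from 154, 174 and 125 CPM to 222, 230 and 187 (0.45 ± 0.0701, adjusted p = 0.000162) and to 230, 212 and 190 (0.48 ± 0.0771, adjusted p = 0.000337). Its sister genes Atp5g2 and Atp5g3 did not pass the test in any comparison. Atp5g1 has a near-identical copy, Gm10039, which could share its reads.

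Smaller falls in preadipocytes were found for Ndufa6, Cox6c, Sdha and Ndufb11, between -0.25 and -0.23. Cox6c fell from 382, 518 and 351 to 355, 433 and 300 CPM (adjusted p = 0.00517), and Sdha, which holds the flavin of succinate dehydrogenase, from 81.9, 85.3 and 76.2 to 74.2, 73.3 and 67.2 (-0.24 ± 0.0619, adjusted p = 0.00632). The groups of Cox6c overlapped, those of Sdha did not. Without mouse 2, Cox6c (-0.21, adjusted p = 0.0605) and Ndufb11 (-0.18, 0.0751) were no longer called, and without mouse 3, Ndufa6 (-0.21, 0.0792) and Sdha (-0.23, 0.0512) were not. In cells low in dissociation genes, Cox6c, Ndufb11 and Sdha were not called (adjusted p = 0.0822, 0.107 and 0.055). Cox6c and Ndufb11 have near-identical copies.

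Regulatory cells were set against progenitor cells in the same way. Of 80 chain genes, 27 were higher and 9 lower, together 45% and so close to the share of all genes called, which was 43%, 19% as higher and 24% as lower. The median log2 fold change was 0.103 against -0.050 for all genes, and 75 of 80 genes lay within 0.5 of zero. By symbol, complex I gave 15 of the rises, Ndufa4 and Ndufa4l2 among them, and 2 of the falls. Complex IV gave 6 and 4, complex V 3 and 2, complex III 3 rises and complex II 1 fall. Without the block, 4 chain genes and 23.6% of all genes were called. Without mouse 3 the count was 15 (9 higher, 6 lower) against 31.1% of all genes, and in cells of 5000 to 15000 UMIs it was 21 (12 higher, 9 lower) against 37.4%. The epithelial genes Krt8, Krt18 and Epcam summed to 108 CPM in the regulatory cells of mouse 3 and to 0 in those of mice 1 and 2. With cells at or above set UMI counts of such markers left out, the median log2 fold change was 0.106 for the chain and -0.052 for all genes.

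Beside the isoforms above, the leading rises were those of Ndufb6 (0.43 ± 0.0875, adjusted p = 0.0018) and Ndufa4 (0.38 ± 0.0754, adjusted p = 0.00138). Ndufa4 was at 260, 337 and 225 CPM in progenitor cells and 366, 395 and 308 in regulatory cells, higher in each mouse although the groups overlapped. The falls were led by Cox6c, to 294, 376 and 288 CPM (-0.38 ± 0.0675, adjusted p = 0.000692), Sdha, to 54.8, 71.7 and 59.4 CPM (-0.37 ± 0.0795, adjusted p = 0.00264), and Ndufb7 (-0.32 ± 0.0815, adjusted p = 0.0075). Ndufb7 was not called without mouse 2 (-0.21, adjusted p = 0.152), and neither Ndufb7 (-0.19, 0.338) nor Sdha (-0.28, 0.145) was called in cells low in dissociation genes.

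**Figure D3:**
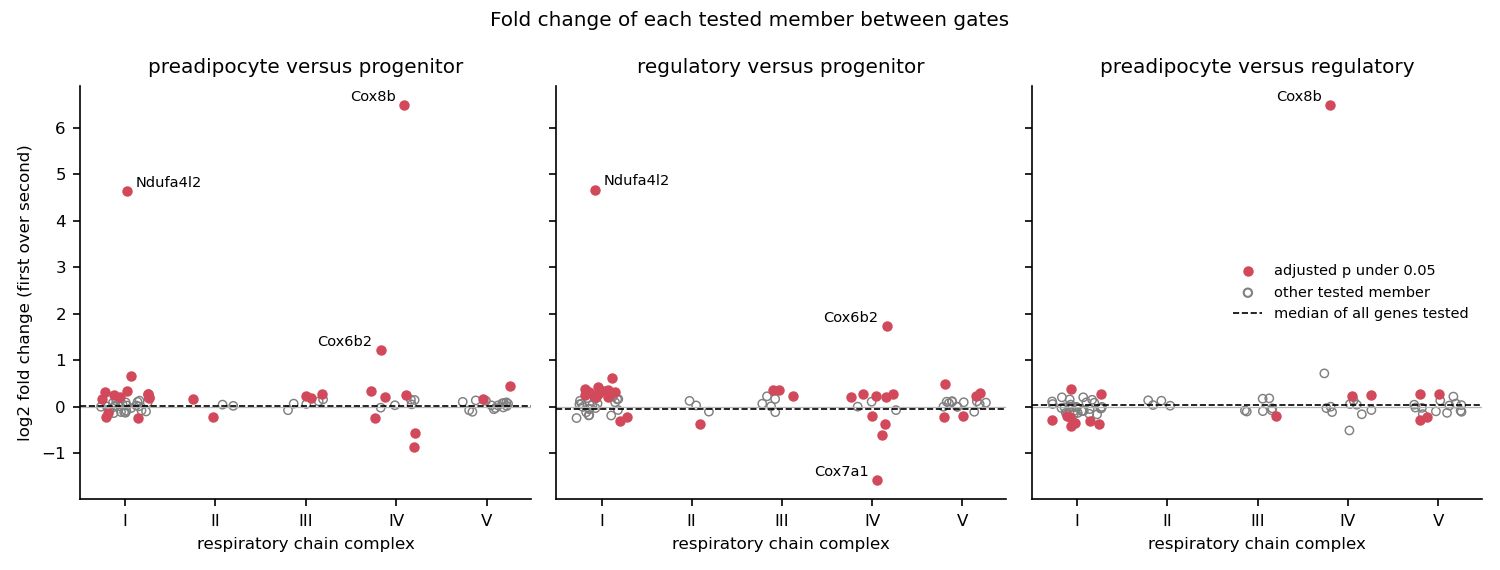
Log2 fold change of each of the 80 tested chain genes, by complex, in the 3 comparisons between gates, with called genes filled in red, other genes open and the median of all genes dashed. Most genes lie within 0.5 of zero, with Cox8b, Ndufa4l2 and Cox6b2 far above, and the value of Cox8b in the right panel rests on 1 UMI per mouse in regulatory cells.

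Preadipocytes and regulatory cells, set against each other, differed in 7 chain genes that were higher in preadipocytes and 10 that were lower. This was 21.25% of 80, where 25.7% of all genes were called, 13.3% as higher and 12.3% as lower. With scaling by total UMIs instead of TMM the split turned to 10 higher and 6 lower, against 16.1% and 11.2% of all genes. Without the block, 1 chain gene and 11.5% of all genes were called. By symbol, complex I held 7 of the 10 lower genes, Ndufa4 among them. Ndufa1 stood at 108, 149 and 86.7 CPM in preadipocytes against 126, 182 and 136 in regulatory cells (-0.43 ± 0.0837, edgeR adjusted p = 0.0026), followed by Ndufa4 (-0.38, 0.00292), Ndufv3 (-0.35, 0.00289), Ndufs7 (-0.31, 0.00951) and Ndufb11 (-0.29, 0.00757). All 5 were lower in preadipocytes in each mouse, which the choice of the largest falls required. Higher were Ndufa9 (0.37, 0.0227), Ndufa10 (0.28, 0.0206) and Atp5b, the catalytic beta subunit of ATP synthase (0.28, 0.0157). Without mice 1, 2 or 3 the calls numbered 8, 7 and 7, against 21.4%, 15.5% and 17.1% of all genes. Among the named genes, Ndufa9 was lost without mice 1 or 2 (adjusted p = 0.0987 and 0.224), Atp5b without mice 2 or 3 (0.125 and 0.101), Ndufa10 whichever mouse was left out (0.0587 to 0.117), and Ndufs7 (0.0756) and Ndufb11 (0.0747) without mouse 3. In cells of 5000 to 15000 UMIs, Ndufa1 (-0.27, adjusted p = 0.0521), Ndufv3 (-0.23, 0.0768), Ndufb11 (-0.18, 0.115) and Atp5b (0.23, 0.0546) were not called, and in cells low in dissociation genes all 8 of these genes but Ndufa4 and Ndufa9 lost their call (0.0567 to 0.882).

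Apart from Ndufs8, described above, the core and other subunits named here moved little and not together. In complex I, Ndufs1 and Ndufv1 passed no test in any comparison, and Ndufs7 was higher in regulatory than in progenitor cells (0.31 ± 0.0734, adjusted p = 0.00483), a call lost without mouse 3 (0.27, adjusted p = 0.058) and in cells low in dissociation genes (0.33, adjusted p = 0.0632). In complex II, Sdha fell in both gates, Sdhb was higher in preadipocytes (0.15 ± 0.0602, adjusted p = 0.0468, lost whichever mouse was left out, at 0.0811 to 0.106), and Sdhc and Sdhd did not pass. Sdha and Sdhb form the catalytic part of that complex, and Sdhc and Sdhd anchor it in the membrane.

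In complex III, Uqcrc2 was higher in preadipocytes, at 68, 80 and 57.2 CPM against 53.7, 68 and 47.2 (0.23 ± 0.0581, adjusted p = 0.00516), whereas its partner Uqcrc1 and the iron-sulfur protein Uqcrfs1 passed no test. In complex IV, Cox5a was higher in preadipocytes (0.24 ± 0.0632, adjusted p = 0.00589) and in regulatory cells (0.28 ± 0.0729, adjusted p = 0.00864), the latter lost without mouse 3 (0.25, adjusted p = 0.0577). Cox5b was higher in regulatory cells (0.22 ± 0.0669, adjusted p = 0.018), a call lost without mouse 1 (0.055) or mouse 3 (0.105). In complex V, Atp5b was lower in regulatory than in progenitor cells (-0.21 ± 0.0738, adjusted p = 0.0414), a call lost without mouse 2 (0.301) or mouse 3 (0.239), and Atp5c1 passed no test. The calls of Cox5a, Cox5b and Atp5b in regulatory cells were also lost in cells of 5000 to 15000 UMIs (adjusted p = 0.0724, 0.0605 and 0.124).

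The study separates Icam1+ preadipocytes into pro-preadipocytes (pro-PreAs), with Cd44, Noct and Ptx3, and PreAs, with Txnip and G0s2, and the chain was compared between them. Preadipocyte-gated cells were put on the pro-PreA side when Cd44, Noct and Ptx3 together had at least 4 UMIs and over 2 times those of Txnip and G0s2, and on the PreA side in the reverse case. This gave 583, 401 and 666 cells on the pro-PreA side and 1141, 813 and 766 on the PreA side. The chain took 1.19%, 1.28% and 1% of UMIs on the pro-PreA side and 1.28%, 1.5% and 1.1% on the PreA side, lower in all 3 mice by -0.155 ± 0.062 (log2, SD, n = 3). All complexes were lower, from -0.111 for complex V to -0.224 for complex II.

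That difference depends on the scale. Among the genes tested, the median log2 fold change was -0.181 with scaling by total UMIs, and 0.007 with TMM, which sets the bulk of genes to zero. With TMM, the summed difference of the chain was 0.0313 ± 0.0229. A few highly expressed genes were higher on the pro-PreA side, and their part in the difference was not tested. Mt1 was higher by 6482 CPM on average, Tnfaip6 by 2509, Ptx3 (used for the split) by 2315, Ccl7 by 2301 and Cxcl1 by 2108. Dissociation genes summed to between 12382 and 16678 CPM on the pro-PreA side and 21573 and 27035 on the PreA side. In cells low in these genes the difference in share was -0.353 ± 0.0666. There the median log2 fold change with TMM was -0.111 for the chain against 0.000 for all genes. Of 79 chain genes tested in these cells, 1 was called higher and 12 lower on the pro-PreA side. The share of all genes called in these cells is not given here, so this count does not set the chain apart. This setting held 341, 284 and 325 cells on the pro-PreA side but only 181, 165 and 59 on the PreA side.

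Relative to the bulk of genes, 4 chain genes were higher and 6 lower on the pro-PreA side (edgeR, TMM). This was 12.5% of the 80 tested, where 36.8% of 11094 genes were called, 21.4% as higher and 15.4% as lower. With scaling by total UMIs, 37 were called, all lower, where 32.1% of all genes were lower. Without the block edgeR called 0, with 1 at an unadjusted p under 0.05, where 9.6% of all genes were called, and DESeq2 with the block called 1. The medians of the chain and of all genes were 0.008 and 0.007 with TMM and -0.179 and -0.181 with total UMIs. The count was 5, 6 and 4 without mice 1, 2 and 3, against 32.2%, 29.5% and 26.5% of all genes.

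Ndufa4l2 and Cox8b, which were raised in preadipocytes, were lower on the pro-PreA side, while Cox6b2 and Cox8a, raised there too, were not called (-0.02 each). Ndufa4l2 stood at 21.5, 37.9 and 27.7 CPM against 42.6, 70 and 46.4 on the PreA side (-0.68 ± 0.0949, edgeR adjusted p = 0.000112), and Cox8b at 19.2, 37.1 and 27.1 against 29.9, 70 and 35.1 (-0.48 ± 0.109, adjusted p = 0.00379). Ndufa4l2 and Cox8b were lower in each mouse, under both scalings. Mural markers summed to between 124 and 152 CPM on the pro-PreA side and 191 and 246 on the PreA side. Leaving out each mouse kept both calls. Both were lost without the block, and that of Cox8b with DESeq2.

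The other falls were found in Sdhd, at 41.3, 47.9 and 35.4 CPM against 59.4, 69.8 and 48 (-0.32 ± 0.0847, adjusted p = 0.0102), Ndufs3 (-0.29 ± 0.0833, adjusted p = 0.0145), Ndufs7 (-0.28 ± 0.0863, adjusted p = 0.0232) and Uqcrc2 (-0.26 ± 0.0868, adjusted p = 0.0332). Sdhd carries the GABPA letters printed above, and Ndufs3 carries them too, but Ndufs7 and Cox8b do not. Cox6a1, Uqcrh and Atp5e, which rose in this comparison, also carry them. Sdhd was not called without mouse 1 (adjusted p = 0.0537), Ndufs3 without mouse 2 (0.0582), and Ndufs7 and Uqcrc2 without mouse 2 (0.097 and 0.162) or mouse 3 (0.0712 and 0.0819). The rises of Cox6a1 (0.21), Atp5mpl (0.20), Uqcrh (0.19) and Atp5e (0.18) had edgeR adjusted p between 0.0286 and 0.0424. With DESeq2 size factors, which like TMM set the bulk of genes near zero, edgeR also called them, at adjusted p between 0.0267 and 0.04. The DESeq2 Wald test called none of these rises (adjusted p between 0.185 and 0.252). Nor did it call the falls of Sdhd, Ndufs3, Ndufs7 and Uqcrc2 (0.164 to 0.258). The rises were not called without the filter on low counts (0.0933 to 0.137). Scaled by total UMIs these genes lay between -0.01 and 0.02, as for Cox6a1 with 185, 198 and 166 CPM against 177, 214 and 153. Atp5mpl and Atp5e were lost whichever mouse was left out (0.067 to 0.222), and Cox6a1 and Uqcrh without mice 1 or 3 (0.106 to 0.29).

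**Figure D4:**
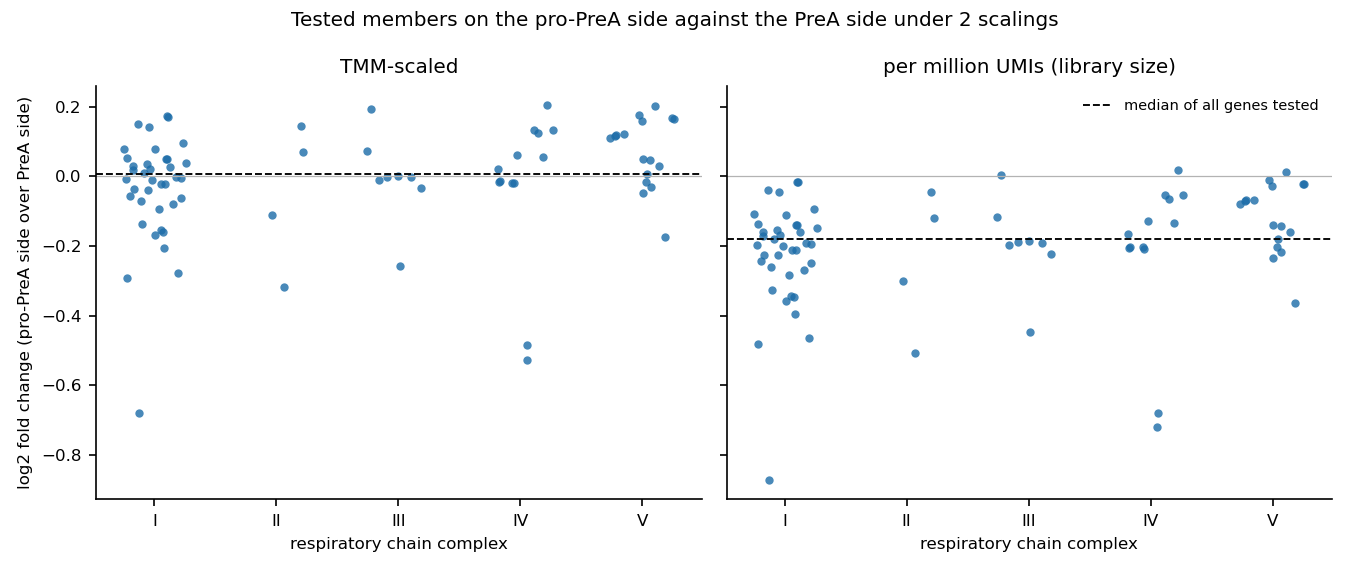
Log2 fold change of the 80 tested chain genes on the pro-PreA side over the PreA side, by complex, scaled by TMM (left) and by total UMIs (right), with the median of all genes dashed. The cloud of points follows the dashed line from 0.007 to -0.181, while Ndufa4l2, Cox7a1 and Cox8b stay lowest in both panels.

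Other genes of the pathway were read from the same fits. The 13 protein-coding genes of mitochondrial DNA supply the remaining chain subunits, and 12 of them (92.3%, against 56.4% of all genes called) were higher in preadipocytes and 11 (84.6% against 43%) in regulatory cells than in progenitor cells, which were all of those called, at medians of 0.401 and 0.456. The largest differences were those of mt-Cytb (0.62 in preadipocytes, 0.91 in regulatory cells) and mt-Nd4l (0.54 and 1.17). The median share of mitochondrial UMIs per cell was 1.29%, 1.93% and 1.48% in progenitor cells and 1.67%, 2.69% and 2.01% in preadipocytes, and cells at 5% or above had been removed. Without the block, edgeR called 0 of these genes in preadipocytes, with 3 at an unadjusted p under 0.05, where 30.1% of all genes were called. In regulatory cells it called 2, where 23.6% of all genes were called. DESeq2 with the block called 12 in preadipocytes, where 50.2% of all genes were called.

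Subunits of the chain whose names lie outside the rule were mostly higher in preadipocytes, with 6 of 8 higher and 1 lower (87.5% against 56.4% of all genes). Cycs, which is cytochrome c itself, rose by 0.39 (adjusted p = 0.000332), and Cyc1 of complex III by 0.38. Cox4i2, the hypoxia-related isoform of Cox4, stood at 3.53, 5.58 and 2.8 CPM in preadipocytes and at most 0.081 in progenitor cells, where it rested on 4, 1 and 5 UMIs. The common isoform Cox4i1 did not pass (-0.13).

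The mitochondrial ribosome translates the transcripts of mitochondrial DNA. Of its 78 genes, 43 were higher and 4 lower in preadipocytes than in progenitor cells (median 0.241), and 31 and 2 in regulatory cells (0.242). The shares called, 60.3% and 42.3%, are close to the 56.4% and 43% of all genes, while the shares higher and lower over all genes were 27.2% and 29.2%, and 19% and 24%. On the pro-PreA side 37 (47.4%) were called, all lower (median -0.28), where 36.8% of all genes were called and 15.4% were lower. The count was 63 with total UMIs, where 32.1% of all genes were lower, and 13 with DESeq2, where 5.21% were. It was 5 without the block, against 3.91%, and all of these were lower too. Assembly factors, which build the complexes without staying in them, had 15 higher and 4 lower of 42 in preadipocytes (45.2% against 56.4% of all genes) and 1 higher and 16 lower of 41 on the pro-PreA side (41.5% against 36.8%, median -0.288). Among the latter, Sdhaf1, which assembles complex II, fell by 1.53 and Atpaf1, an assembly factor of ATP synthase, by 1.01 on the log2 scale.

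In preadipocytes, genes of neighbouring pathways were called about as often as all genes. Of 16 citrate cycle genes, 4 were higher and 5 lower in preadipocytes (56.2%, against 56.4% of all genes), with Idh3a up by 0.52 and the pyruvate dehydrogenase subunits Pdha1 and Pdhb at -0.78 and -0.62. In regulatory cells 1 was higher and 5 lower (37.5% against 43%). Glycolysis had 4 higher and 4 lower of 16 in preadipocytes (50%) and 2 and 5 in regulatory cells (43.8%). On the pro-PreA side 5 of 15 were higher and 1 lower (40% against 36.8%). Hexokinase 2 (Hk2) stood there at 367, 607 and 500 CPM against 73.5, 77.9 and 89.6 (2.78), the glucose transporter Slc2a1 was higher by 2.42 and lactate dehydrogenase Ldha by 0.67.

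Of 13 regulators of mitochondrial biogenesis, 3 were higher and 2 lower in preadipocytes (38.5%), 3 were called in regulatory cells, all lower (23.1%), and 2 were higher and 2 lower of 9 on the pro-PreA side (44.4%), against 56.4%, 43% and 36.8% of all genes. Ppargc1a, which encodes the coactivator PGC-1alpha, was at 0.98, 2.6 and 1.6 CPM in preadipocytes. Tfam, which packages and transcribes mitochondrial DNA, was higher by 0.61 in preadipocytes and lower on the pro-PreA side (-0.46), where Esrra was lower as well (-0.96). Of the uncoupling and beige markers, 6 of 10 had enough counts, and 3 were higher and 2 lower in preadipocytes (83.3% against 56.4% of all genes). Cox8b was 1 of the 3, whereas Ucp1 was listed at 1.64, 1.59 and 2.95 CPM in progenitor cells and 0.109, 0 and 0 in preadipocytes.

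**Figure D5:**
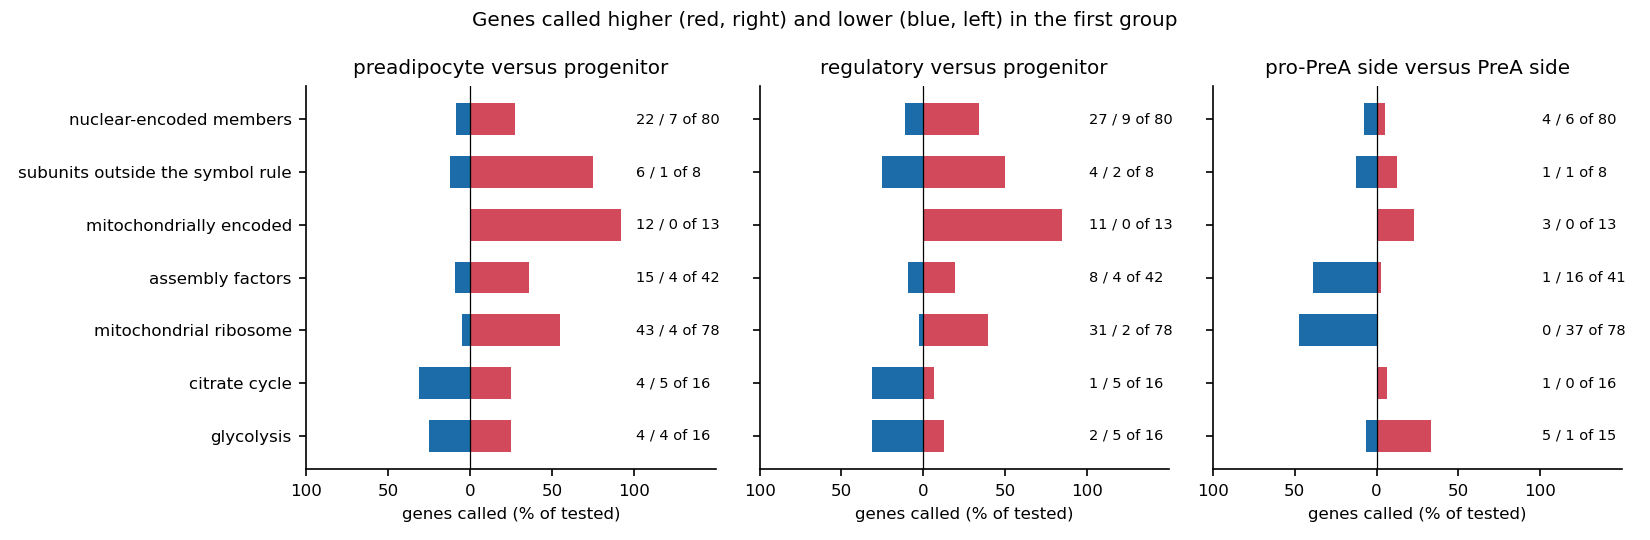
Share of tested genes (%) called higher (red, to the right) and lower (blue, to the left) in the first group of 3 comparisons, for the chain genes and 6 related lists, with the counts higher / lower beside each bar. Mitochondrially encoded genes stand furthest right in the first 2 panels, and assembly factors and the mitochondrial ribosome furthest left in the third.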

How the data were processed

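The counts deposited by the authors are whole UMIs per gene and barcode, not normalized. They were made with Cell Ranger, given as 2.1.1 in the submitters' processing notes and 4.0.0 in the matrix headers, against mm10. Cells with more than 500 genes and under 5% mt- UMIs were kept, gated on raw UMIs and summed per mouse. The 9 sums of the gates and the 6 sums of the split were each fitted in edgeR 4.0.16 (R 4.3.3) with filterByExpr, TMM, the mouse as a block and the quasi-likelihood test. P-values were adjusted over all genes, and gate genes were left out of the counts of calls. The sums of a mouse come from the same animal. Their deviations from the gate means correlated at 0.154 to 0.678 (gates) and 0.454 to 0.636 (split) over genes, which are not independent replicates.

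Named genes are, per comparison, the 5 largest rises and falls past the threshold with 1 sign in all 3 mice and at least 10 CPM in a group, core subunits, and isoform families. Some core subunits are not reported here. Levels are UMIs of a gene per 1000000 UMIs of the sum (CPM). For shares of cells at equal depth, cells were thinned to 3000 UMIs. Intervals are exact and cover counting error only. Doublets were not called; leaving out the top 5% of cells by UMIs was an alternative. Of the 83 genes, 24 have near-identical transcripts elsewhere, judged over the last 400 bases at 95% identity, and 5 share exons with another gene on their strand. Fits were tested on simulated data with larger changes than most of those reported here and no differences between mice. That test does not cover the small differences. Genes and lists were chosen with earlier results of these data known. Python 3.11.15 and matplotlib 3.10.9 were used for sums and figures.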

Additional observations from a re-analysis of the deposited data

How the results depend on the processing

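Without the mouse as a block, the chain genes called numbered 5 (preadipocyte against progenitor, from 29), 4 (regulatory against progenitor, from 36), 1 (preadipocyte against regulatory, from 17) and 0 (pro-PreA against PreA side, from 10). Leaving out 1 mouse gave 20 to 22, 15 to 33, 7 to 8 and 4 to 6, and summed differences (log2) of 0.0642 to 0.131, 0.0738 to 0.147, -0.0164 to 0.0417 and -0.177 to -0.12. For preadipocytes against progenitor cells, 50.6% of all genes were called without mouse 1 and 48.9% without mouse 2. The share without mouse 3 is not given here. Without mice 1, 2 and 3, 36.6%, 31.8% and 31.1% were called for regulatory against progenitor cells. For regulatory against progenitor cells, 21 were called in cells of 5000 to 15000 UMIs (summed difference 0.00734), 20 with stricter gates and 15 in cells low in dissociation genes, against 37.4%, 34.3% and 27.5% of all genes and 26, 28 and 24 chain genes for preadipocytes against progenitor cells. Of all genes, 56.6% and 54.9% were called for the latter comparison in the first 2 settings, with no share given for the third. In cells low in dissociation genes, the median log2 fold change of that comparison was 0.095 for the chain and 0.006 for all genes. In the 3 settings, preadipocytes against regulatory cells had 8 (0.0756, from 0.00306), 10 and 4 calls, against 21%, 20.3% and 15.2% of all genes. For the split, 37 were called with total UMIs, 1 with the DESeq2 1.42.0 Wald test, 6 in cells of 5000 to 15000 UMIs and 6 in a split without Ptx3, against 44.6%, 17.6%, 32% and 30.3% of all genes. The summed difference was 0.0313 with TMM and -0.353 in cells low in dissociation genes. Atp5e reversed to -0.01187 with total UMIs. On that scale preadipocytes against progenitor cells had 30 higher and 6 lower, where 31% of all genes were higher and 26.1% lower. The causes were not tested. The split without Ptx3, cells low in dissociation genes and cells below set counts of markers of other types were alternatives chosen after seeing the data. Over 56 named results and 850 alternative values, 656 kept direction and call, 193 kept the direction only and 1 reversed. The block decided most: 46 of 56 calls were lost without it, against 28 in cells low in dissociation genes. The latter setting held only 623, 517 and 447 preadipocytes and 80, 138 and 91 regulatory cells in mice 1, 2 and 3. The part of these lower cell numbers in the lost calls was not tested. In every alternative, 8 calls were kept: Cox8b in preadipocytes against both other gates, Ndufa4l2 and Cox7a2l in both gates against progenitor cells, and Cox6b2 and Ndufs8 in preadipocytes. With 3 mice and few regulatory cells, small differences could have been missed.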
